A study of Mus musculus with 15 samples.

Results

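The genes described here are 42 genes of the cell division cycle and DNA replication, followed across 5 groups of mouse embryonic stem cells. They were taken from a list of symbols: D cyclins and their kinases, S phase entry genes, replication factors, enzymes of nucleotide supply, mitotic cyclins and kinases, spindle checkpoint and chromosome genes, transcription factors, and inhibitors of cyclin-dependent kinases (CDKs). The list is one of symbols and sets no condition on measured values. It and the other gene lists were, however, chosen with earlier results of these data known, so shares within them are not independent of the data. Of the 42 genes, 41 were measured among the 14439 genes tested. The missing gene is Ccne2, cyclin E2, whose probes were not well above background on all 3 arrays of any group.

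RNA of each sample was labelled and hybridised to a single-colour Agilent array, 15 arrays in all. Cultures were kept on gelatin in the usual medium for mouse embryonic stem cells, per the labels. Wild-type cells and cells null for the gene that the labels call Nat1 gave 3 arrays each. The other groups all carried the Nat1 deletion together with a transgene under tetracycline control: tet-Map3k3 cells without doxycycline (Dox), tet-Map3k3 cells with Dox and tet-EGFP cells with Dox, again with 3 arrays each. Map3k3 is a kinase at the top of MAP kinase cascades, and EGFP, a fluorescent protein, is the control transgene. Every comparison with wild-type cells is therefore also a comparison of deleted with undeleted cells, and the untreated Map3k3 line carries the transgene too. The dose and duration of Dox, and whether a line is a single clone, are not stated in the labels. Whether replicates came from different cultures is not stated in the labels, and the p-values therefore speak only to the scatter among these arrays.

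Progress through the cell cycle is driven by CDKs, which are switched on by cyclins and held back by inhibitor proteins. D cyclins with CDK4 and CDK6, then cyclin E with CDK2, phosphorylate the retinoblastoma protein and release E2F factors, which switch on the genes of DNA replication; B-MYB and FOXM1 later switch on the genes of mitosis. Mouse embryonic stem cells are known for a short G1 phase and for low levels of the INK4 inhibitors and D cyclins relative to differentiated cells.

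Levels are given as log2 of the processed signal minus the 75th percentile of the same array, so a level of 0 is the brightness of the probe at that percentile. The probe of a gene that was brightest over all arrays stands for the gene, and levels of different genes are not compared, since probes differ in brightness. A difference between groups is a log2 difference of group means with its standard error (SE) from 1 limma model over all 15 arrays. A gene was called, and is said to have risen or fallen, when its p adjusted over the 14439 genes (Benjamini-Hochberg) fell below 0.05 with a difference of 1.5-fold or more. A second count, adjusted p alone, drops the fold minimum.

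The 75th percentile of signal lay between 495 and 615 units, and 42.7 to 53.9% of the probes of an array were well above background. That share split by slide row, with 50.8 to 53.9% in row 1 and 42.7 to 49.2% in row 2. The lowest share was that of Map3k3 array 2 with Dox, and the part of the row in the differences between groups was not settled. Eif4g2, the translation initiation factor that the labels call Nat1, fell by 2.60 (SE 0.14, adjusted p = 2.32e-08), from 4.31 ± 0.15 in wild-type cells to 1.71 ± 0.20 in null cells (SD, n = 3). The probe of Map3k3 read -0.50 ± 0.15 with Dox and -0.69 ± 0.22 without (SD, n = 3, adjusted p = 0.236), and no source used here says whether that probe reads transgene RNA. Induction of Map3k3 by Dox was thus not shown by this probe. All 10 pluripotency markers, among them Pou5f1, Sox2 and Nanog, were well above background on every array of each group. On the slides, wild-type and null arrays shared slide 2 but lay in rows 1 and 2, whereas all 3 arrays without Dox lay on slide 1, row 1, where only 1 of the 3 Map3k3 arrays with Dox lay. Of the 41 measured genes, 40 were well above background on all 15 arrays; the exception was Cdk6, above it on 3 wild-type, 2 null, 2 untreated Map3k3, 1 EGFP and 2 treated Map3k3 arrays.

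**Figure D1:**
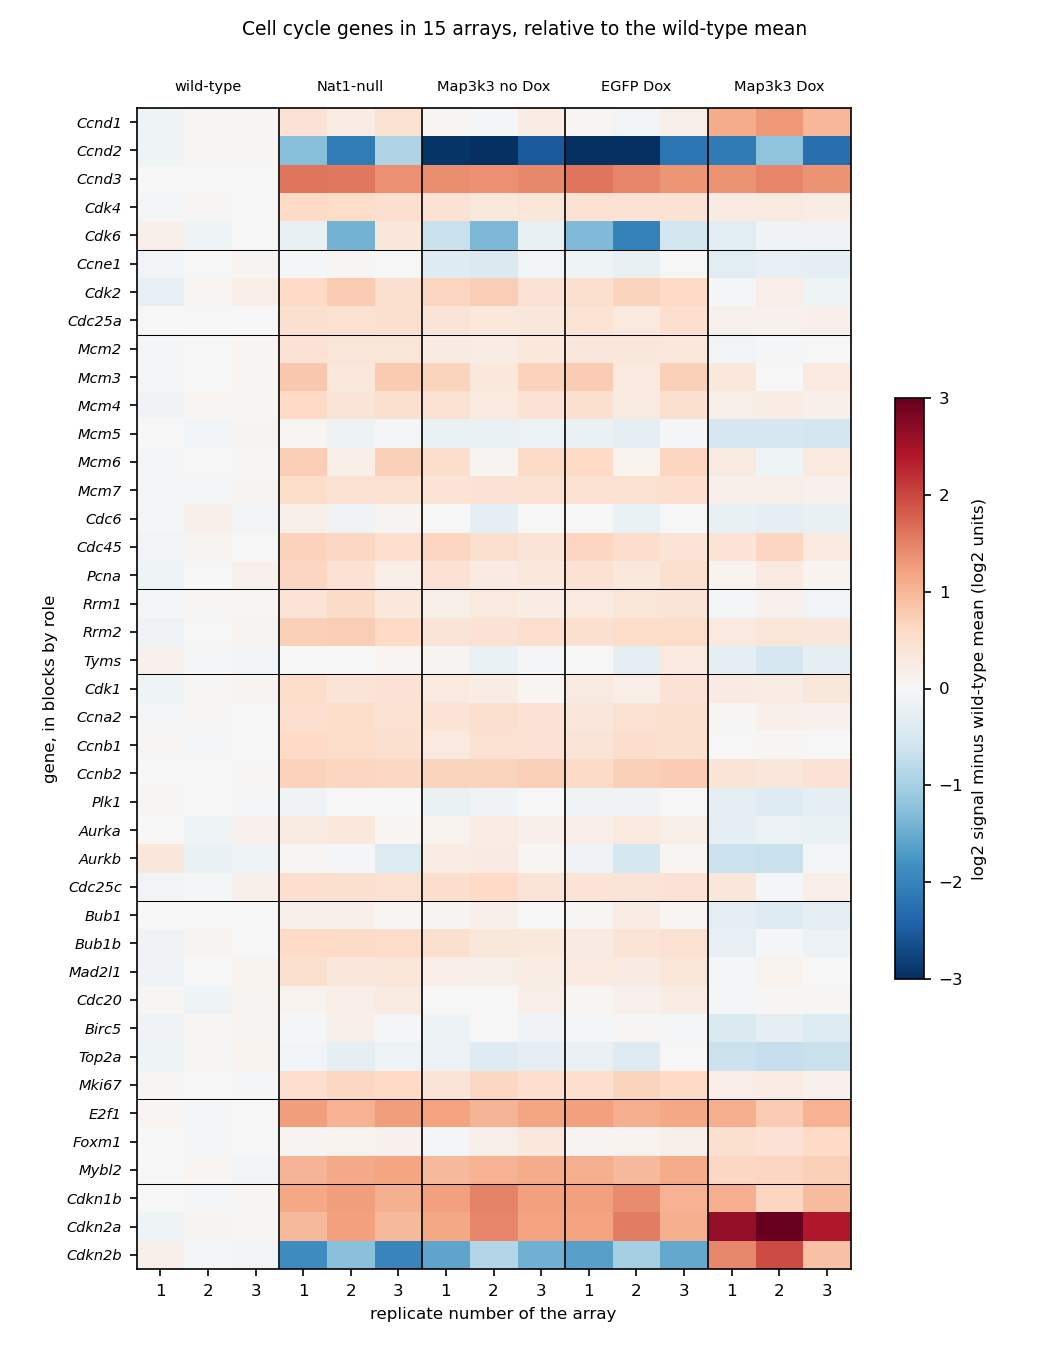
Each row is 1 of the 41 measured genes, in blocks by role, and each column 1 array; colour is the log2 level minus the mean of the 3 wild-type arrays, with the colour scale ending at 3 log2 units either way. Red fills most replication and mitotic rows from the null arrays to the EGFP arrays and pales in the Map3k3 arrays with Dox, while Cdkn2a and Cdkn2b are darkest red there and Ccnd3, E2f1 and Cdkn1b stay red in all 12 null-derived arrays.

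Many of these genes are known targets of E2F, B-MYB and FOXM1 complexes, and promoters are shown for members whose levels moved together or apart in the comparisons below. In RefSeq's promoter sequences for GRCm38.p6, 34 of the 42 genes had an entry, and the 250 bases before the start were searched on both strands. The motifs were E2F-type sites (TTTCGCGC, TTTGGCGC, TTTCCCGC or TTTGGCGG), CHR elements (TTTGAA or TTCGAA), which B-MYB and FOXM1 complexes are known to use, and the CCAAT box (CCAAT). An E2F-type site stood in 8 of the 34 (23.5%), against 15.6% of the 96 other cell cycle genes with an entry and 2.26% of 27025 genes. CCAAT stood in 23 of the 34 (67.6%), against 60.4% and 37.5%. CHR stood in 10 (29.4%), against 27.1% and 19.6%. Overlapping matches were counted as separate sites, and a match is only a description of the letters. The stretches below are the 120 bases that end just before the start, on the gene's own strand, with motif letters on either strand in capitals.

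The mitotic genes are shown by Ccnb2 (chr9:70421555-70421674, minus strand), Cdk1 (chr10:69352913-69353032, minus strand) and Top2a (chr11:99024190-99024309, minus strand), for their repeated CCAAT boxes. All 5 promoters of the mitotic cyclins and kinases, and 5 of the 7 of the spindle and chromosome genes, held CCAAT within 250 bases.
Ccnb2: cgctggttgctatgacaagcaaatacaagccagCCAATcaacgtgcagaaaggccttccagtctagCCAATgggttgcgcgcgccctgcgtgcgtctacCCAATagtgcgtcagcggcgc
Cdk1: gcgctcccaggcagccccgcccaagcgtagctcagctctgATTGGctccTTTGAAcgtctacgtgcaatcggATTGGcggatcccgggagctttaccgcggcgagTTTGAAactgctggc
Top2a: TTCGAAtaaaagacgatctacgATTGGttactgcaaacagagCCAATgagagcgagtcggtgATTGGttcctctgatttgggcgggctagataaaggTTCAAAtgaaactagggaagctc

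S phase genes are shown by Mcm6 (chr1:128359706-128359825, minus strand) and Cdc25a (chr9:109875459-109875578, plus strand), which held E2F-type letters and CCAAT together. Of the 8 replication promoters, 4 held an E2F-type site.
Mcm6: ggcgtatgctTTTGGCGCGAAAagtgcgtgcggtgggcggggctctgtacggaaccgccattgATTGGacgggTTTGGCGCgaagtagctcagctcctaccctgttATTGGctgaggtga
Cdc25a: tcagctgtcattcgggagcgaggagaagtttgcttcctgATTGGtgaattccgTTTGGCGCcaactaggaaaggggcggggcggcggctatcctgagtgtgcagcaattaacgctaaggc

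The INK4 locus is shown because its genes moved most in the Map3k3 cells. Cdkn2b (chr4:89311033-89311152, minus strand) neighbours Cdkn2a, which has a start used for the p19ARF transcript (chr4:89294620-89294739, minus strand) and another (chr4:89282193-89282312, minus strand). The first of these Cdkn2a stretches holds an E2F-type site, and none of the searched letters lies in the other stretch or in that of Cdkn2b.
Cdkn2b: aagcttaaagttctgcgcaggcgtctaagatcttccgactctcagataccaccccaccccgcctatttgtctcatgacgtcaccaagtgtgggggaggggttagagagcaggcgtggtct
Cdkn2a, p19ARF start: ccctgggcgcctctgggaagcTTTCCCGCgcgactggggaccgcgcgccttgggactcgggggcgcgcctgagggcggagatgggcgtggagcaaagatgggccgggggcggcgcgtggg
Cdkn2a, other start: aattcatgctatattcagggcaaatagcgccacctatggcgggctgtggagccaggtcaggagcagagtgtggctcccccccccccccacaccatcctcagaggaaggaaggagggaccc

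Null cells had higher levels of most of these genes than wild-type cells. All wild-type arrays lay in slide row 1 and all null arrays in row 2, so genotype and row cannot be told apart within this comparison. Of the 41 genes, 10 rose (17.2% of all genes tested were called higher): Ccnd3, E2f1, Cdkn1b, Mybl2, Cdkn2a, Rrm2, Ccnb2, Mcm3, Cdk2 and Cdc45. The 2 that fell (20.5% of all genes were called lower) were Cdkn2b and Ccnd2. By adjusted p alone 27 were higher, 2 were lower and 12 did not pass, where 34.7% of all genes were higher and 28.3% lower. Their median log2 difference was 0.46, and that of all genes tested 0.07. For 31 of the 41 the null arrays lay entirely to one side of the wild-type arrays, against 71.9% of all genes. Centring arrays on the median instead of the 75th percentile added 0.14 to the median of all genes, gave 23 calls among the 41 (21 higher), and moved the higher share of all called genes from 45.6% to 56.9%. By adjusted p alone that centring gave 29 higher and 2 lower among the 41 (41.4% and 22% of all genes). The shift applied to all genes, so the added calls are not particular to the 41.

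Map3k3 cells with Dox had lower levels of most of these genes than the same line without Dox, beside a few that rose strongly. The 4 that rose (12.3% of all genes) were Cdkn2b, Cdkn2a, Ccnd2 and Ccnd1, and the 2 that fell (5.58% of all genes) were Aurkb and Cdk2. By adjusted p alone 5 were higher and 21 lower, against 18.0% and 21.8% of all genes. The median was -0.24, and that of all genes -0.07. The arrays of 31 of the 41 did not overlap (50.1% of all genes). The count of 21 was 12 with the slide row as a block (14.5% of all genes lower), 10 among the 4 arrays of slide row 1 (10.8%) and 13 when only the 6 arrays compared were fitted (13.8%). With the replicate number as a block it was 25 (26.6%). The 6 calls became 3 without untreated array 1, without untreated array 2 or without Dox array 1, each of which ended the calls of Ccnd2, Cdk2 and Aurkb. Over all genes, leaving out 1 array gave 2390 to 2642 calls. In bulk samples fewer cells in a phase and less RNA per cell cannot be told apart.

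Map3k3 cells with Dox were next set against EGFP cells with Dox, where both sides received the drug. The 3 genes that rose (12.4% of all genes) were Cdkn2b, Cdkn2a and Ccnd1, and none fell (5.64% of all genes). With the replicate number as a block 5 were called, Ccnd2 and Cdk6 being added at adjusted p = 0.0479 and 0.0129. The count was also 5 without null array 2, without EGFP array 1, which added Cdk2 and Bub1b as lower, or without EGFP array 3. Over all genes, leaving out 1 array gave 2436 to 2660 calls. By adjusted p alone 4 were higher and 22 lower (18.0% and 23.4% of all genes), and the median was -0.26. The arrays of 32 of the 41 did not overlap (49.3% of all genes). This comparison shares its Map3k3 arrays with the preceding one, so the counts are not independent of each other.

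**Figure D2:**
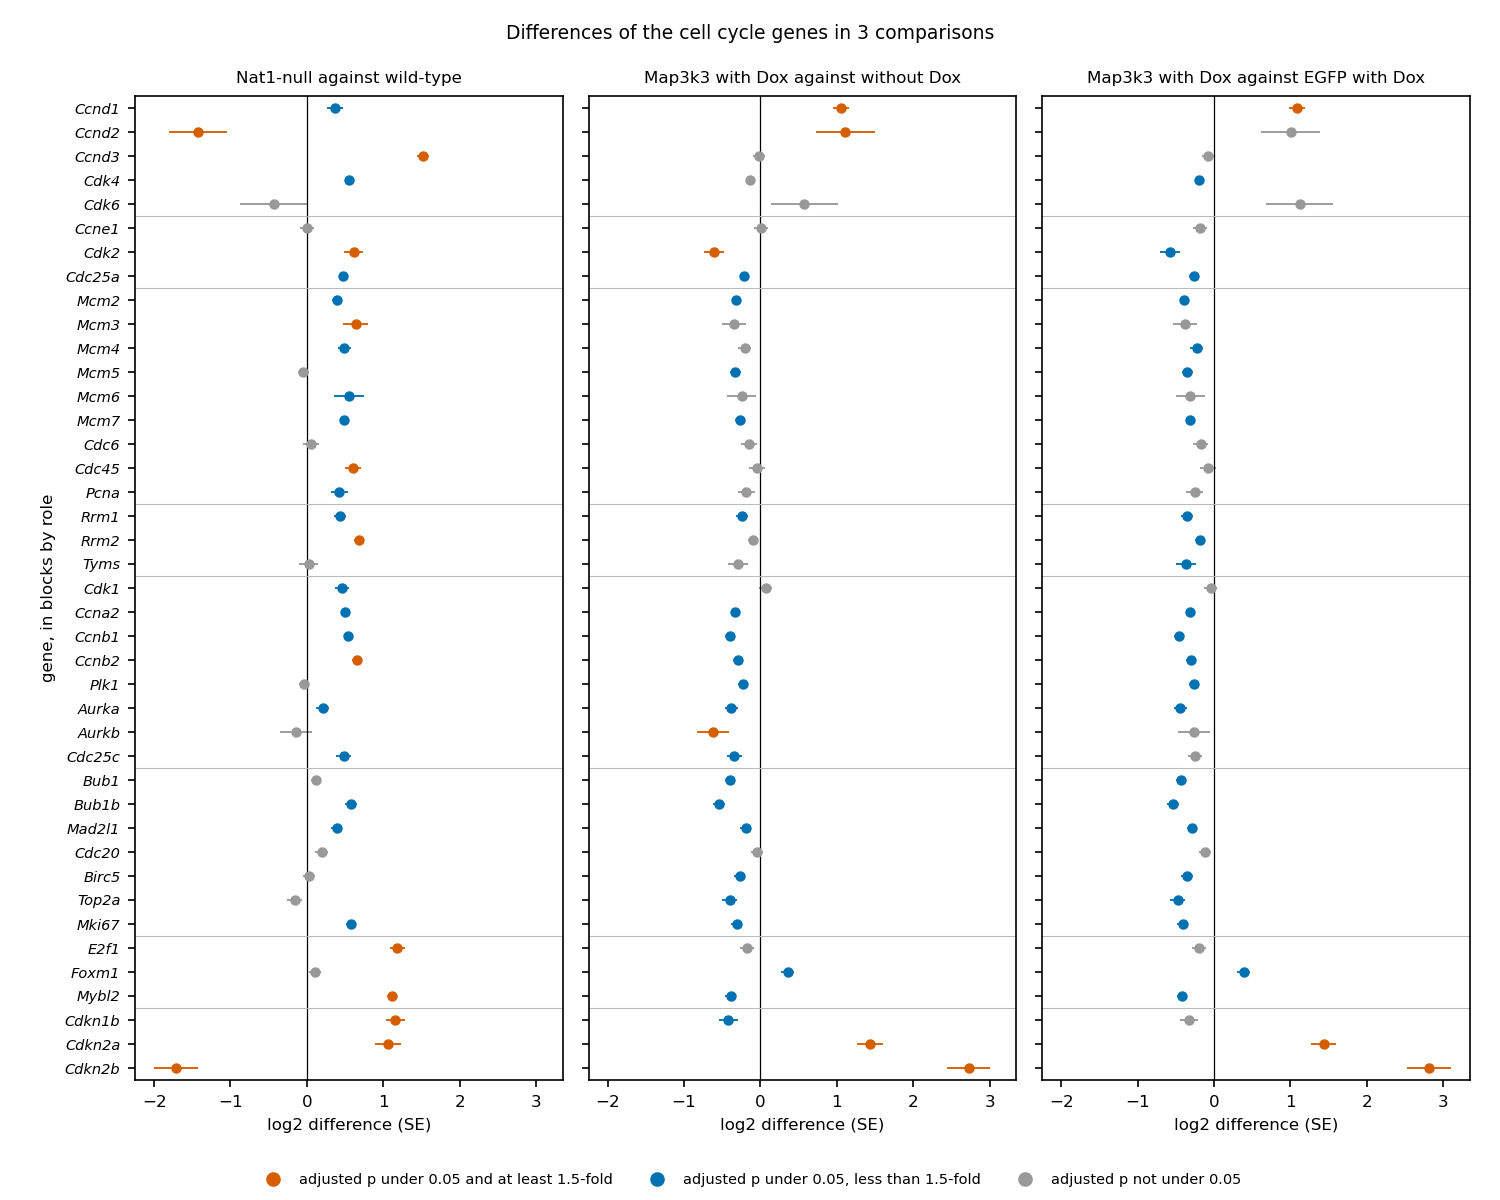
Points are log2 differences with SE for each of the 41 genes in 3 comparisons, ordered by role; orange points pass the adjusted p and the 1.5-fold minimum, blue points the adjusted p alone, grey points neither. Most points lie right of 0 for null against wild-type cells (median 0.46) and left of 0 for Map3k3 with Dox against either control (medians -0.24 and -0.26), while Cdkn2a, Cdkn2b and Ccnd1 lie far to the right in the latter.

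Among the D cyclins, which bring growth signals to CDK4 and CDK6, each member followed its own course. Ccnd3, cyclin D3, read 5.60, 5.62 and 5.63 on wild-type arrays 1 to 3, and 7.21, 7.21 and 7.00 on the null arrays. It read 7.01, 7.00 and 7.06 in the untreated Map3k3 cells, 7.22, 7.09 and 6.93 in the EGFP cells, and 6.96, 7.08 and 6.98 in the Map3k3 cells with Dox. All 12 null-derived arrays lay above all wild-type arrays, and the Map3k3 arrays with Dox lay within the range of the other null-derived ones. Ccnd3 rose by 1.52 in null cells (SE 0.08, 2.87-fold, adjusted p = 2.2e-08), and its difference with Dox was -0.02 (SE 0.08, adjusted p = 0.887).

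Ccnd1, cyclin D1, an early target of growth factor and ERK signalling, was highest in the Map3k3 cells with Dox. Its levels were 3.14, 3.34 and 3.33 in wild-type cells, 3.69, 3.49 and 3.72 in null cells, 3.32, 3.23 and 3.49 in untreated Map3k3 cells, and 3.32, 3.19 and 3.45 in EGFP cells. With Dox the Map3k3 arrays read 4.37, 4.57 and 4.27, each above all 12 other arrays. Ccnd1 rose by 1.05 with Dox (SE 0.11, 2.08-fold, adjusted p = 1.37e-05), by 1.08 against EGFP cells (SE 0.11, adjusted p = 1.08e-05) and by 1.13 against wild-type cells (SE 0.11, adjusted p = 2.18e-06). In null cells the difference from wild-type was 0.36 (SE 0.11, adjusted p = 0.0106), under the fold minimum.

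Ccnd2, cyclin D2, was lower in all null-derived groups and varied widely among replicates. Wild-type arrays read -0.06, 0.14 and 0.14, and null arrays -1.19, -2.02 and -0.83. Untreated Map3k3 arrays read -2.87, -3.37 and -2.44, EGFP arrays -2.98, -3.26 and -2.12, and Map3k3 arrays with Dox -2.04, -1.13 and -2.19. Every wild-type array lay above every null-derived one, while the Dox-treated Map3k3 arrays overlapped those of the parental null cells. Ccnd2 fell by 1.43 in null cells (SE 0.38, adjusted p = 0.00647), a call lost with the slide row as a block (adjusted p = 0.132). It rose by 1.11 with Dox (SE 0.38, adjusted p = 0.0378), a call lost in 9 of 28 alternative settings, and the difference from EGFP cells was 1.00 (SE 0.38, adjusted p = 0.0547). Against the parental null cells Ccnd2 differed by -1.54 in the untreated Map3k3 line (SE 0.38, adjusted p = 0.157) and by -1.44 in the EGFP line (SE 0.38, adjusted p = 0.374).

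Their kinases were called in none of the 6 comparisons. Cdk4 was higher in null than in wild-type cells by 0.55 (SE 0.05, adjusted p = 1.93e-06), just under the fold minimum, and its difference with Dox was -0.13 (SE 0.05, adjusted p = 0.0566). Cdk6, dim throughout, differed by -0.43 in null cells (SE 0.44, adjusted p = 0.409) and by 0.57 with Dox (SE 0.44, adjusted p = 0.323). Against EGFP cells Cdk6 was 1.12 higher (SE 0.44, adjusted p = 0.0585), with arrays that did not overlap, and the replicate block made this a call (adjusted p = 0.0129).

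The S phase entry genes divided. Cdk2, the kinase partner of cyclins E and A, read 1.08, 1.38 and 1.53 in wild-type cells, 1.93, 2.09 and 1.81 in null cells, 1.98, 2.07 and 1.76 without Dox, 1.81, 2.00 and 1.93 in EGFP cells, and 1.27, 1.52 and 1.21 in Map3k3 cells with Dox. The 9 arrays of the null, untreated and EGFP cells lay above all wild-type and all Dox-treated Map3k3 arrays, and the latter 6 overlapped. Cdk2 rose by 0.61 in null cells (SE 0.13, adjusted p = 0.00143) and fell by 0.60 with Dox (SE 0.13, 1.52-fold, adjusted p = 0.0033). Both folds were close to the minimum, and the calls were lost in 5 of 27 and 4 of 28 alternatives. Cdc25a, the phosphatase that activates CDK2, followed at a smaller size, with 0.48 in null cells (SE 0.06, adjusted p = 1.91e-05) and -0.21 with Dox (SE 0.06, adjusted p = 0.014). Ccne1, cyclin E1, did not pass in either (0.00 and 0.01, SE 0.09).

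Of the 9 replication licensing and fork genes, 7 were higher in null cells by adjusted p alone (34.7% of all genes were), and 2 of these, Mcm3 and Cdc45, were called (17.2% of all genes were). Mcm3, a subunit of the MCM helicase, read 5.87, 5.91 and 5.96 in wild-type cells, 6.72, 6.24 and 6.68 in null cells, 6.57, 6.23 and 6.60 without Dox, 6.68, 6.21 and 6.62 in EGFP cells, and 6.22, 5.93 and 6.21 with Map3k3 and Dox. Array 2 was the lowest of its group in all 4 null-derived groups, and the Dox-treated arrays overlapped both the wild-type and the EGFP arrays. Mcm3 rose by 0.64 in null cells (SE 0.16, adjusted p = 0.00417), a call lost in 3 of 27 alternatives. Its difference with Dox was -0.35 (SE 0.16, adjusted p = 0.103).

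Cdc45, which joins the MCM ring to form the active helicase, read -0.75, -0.58 and -0.69 in wild-type cells, 0.01, -0.05 and -0.17 in null cells, -0.03, -0.20 and -0.29 without Dox, -0.03, -0.14 and -0.26 in EGFP cells, and -0.27, -0.02 and -0.38 with Map3k3 and Dox. All null-derived arrays were above all wild-type arrays, and the null-derived groups overlapped. Cdc45 rose by 0.60 in null cells (SE 0.10, 1.52-fold, adjusted p = 0.000282), a call lost in 4 of 27 alternatives. Its difference with Dox was -0.05 (SE 0.10, adjusted p = 0.733).

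The other MCM subunits spanned -0.04 (Mcm5) to 0.55 (Mcm6) in null cells, and Pcna, the sliding clamp, differed by 0.43 (SE 0.11, adjusted p = 0.00594). With Dox all 9 replication genes had a lower mean, as 8377 of the 14439 genes tested did, and 3 passed by adjusted p alone (21.8% of all genes were lower): Mcm5 at -0.33, Mcm2 at -0.32 and Mcm7 at -0.27 (SE 0.08, 0.05 and 0.05). Mcm5 differed from wild-type by -0.04 in null cells, where it did not pass, and by -0.52 with Map3k3 and Dox (SE 0.08, adjusted p = 7.8e-05). Cdc6, which loads the MCM ring, differed by 0.06 in null cells through its brighter probe and by 0.44 through its other probe, so the size there is uncertain. Against wild-type cells the same probes gave -0.24 and 0.38 for Map3k3 with Dox, in opposite directions.

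In nucleotide supply, Rrm2, the small subunit of ribonucleotide reductase, read 6.09, 6.20 and 6.26 in wild-type cells, 6.90, 6.92 and 6.78 in null cells, 6.56, 6.61 and 6.68 without Dox, 6.66, 6.73 and 6.73 in EGFP cells, and 6.48, 6.56 and 6.53 with Map3k3 and Dox. The parental null arrays were the highest, and the Dox-treated arrays stayed above wild-type. Rrm2 rose by 0.68 in null cells (SE 0.06, adjusted p = 1.96e-06), a call that quantile normalization ended. Rrm1, the large subunit, was higher by 0.43 (SE 0.08, adjusted p = 0.000359), and lower with Dox at -0.24 (SE 0.08, adjusted p = 0.0265). Tyms, thymidylate synthase, differed by 0.02 in null cells (SE 0.13, adjusted p = 0.89).

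**Figure D3:**
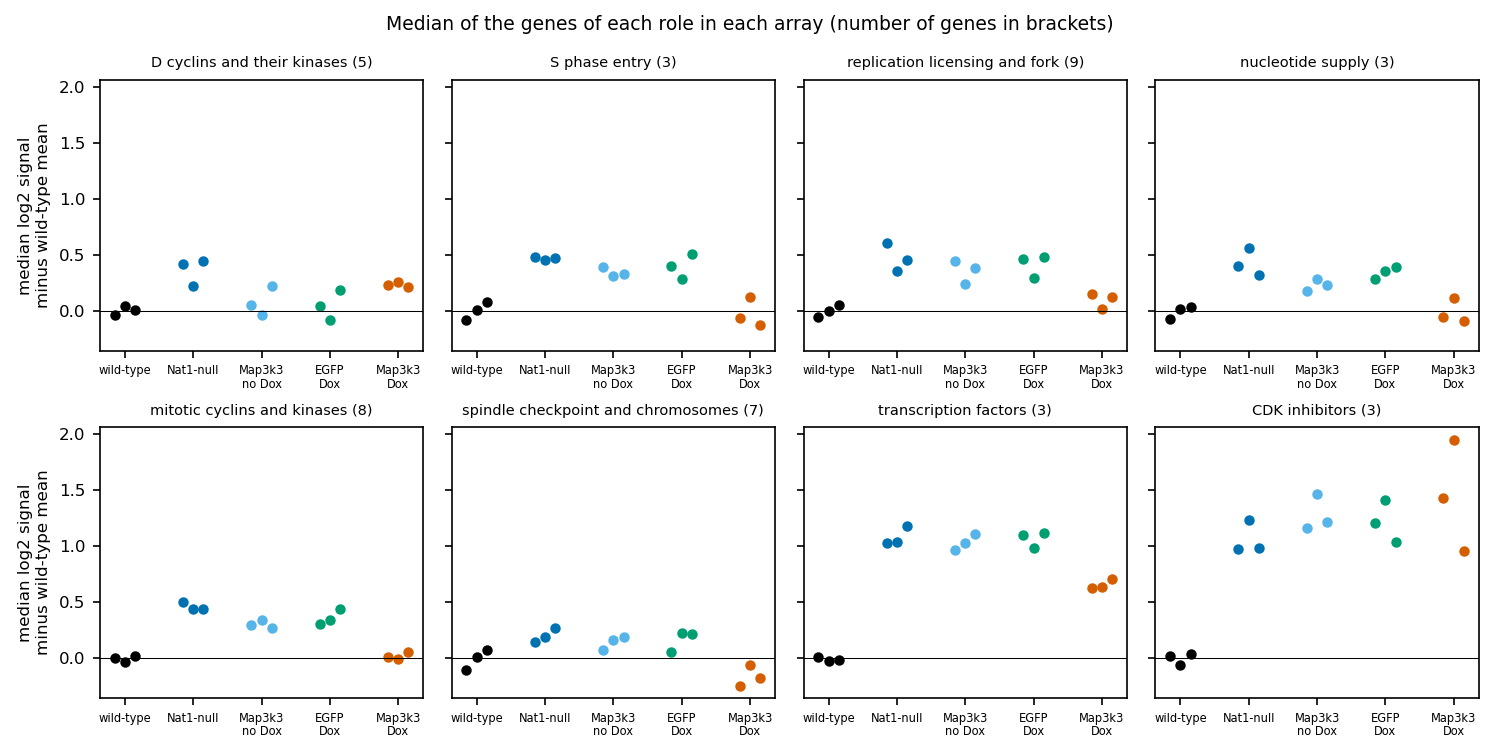
Each point is 1 array and gives the median, over the genes of a role, of the log2 level minus the wild-type mean; the number of genes is in brackets and all panels share 1 axis. For mitotic, spindle and replication genes the Map3k3 arrays with Dox lie below all arrays of the other null-derived groups, whereas for the CDK inhibitors they overlap them.

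Of the mitotic cyclins and kinases, 7 of 8 were lower in Map3k3 cells with Dox than without by adjusted p alone (21.8% of all genes were), and 5 of 8 were lower against EGFP cells (23.4%). In null cells 6 of 8 were higher (34.7%). Ccnb2, cyclin B2, whose 3 CCAAT boxes are printed above, read 5.92, 5.91 and 5.96 in wild-type cells, 6.63, 6.57 and 6.54 in null cells, 6.61, 6.59 and 6.64 without Dox, 6.51, 6.65 and 6.69 in EGFP cells, and 6.31, 6.26 and 6.36 with Map3k3 and Dox. Its groups formed 3 levels without overlap: wild-type lowest, Dox-treated Map3k3 between, and the 9 other arrays highest. Ccnb2 rose by 0.65 in null cells (SE 0.06, adjusted p = 1.36e-06), a call that quantile normalization ended. It was lower at -0.30 with Dox (SE 0.06, adjusted p = 0.0017).

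Ccnb1, cyclin B1, went further down, to 5.95, 6.00 and 5.96 with Dox, which overlapped the wild-type levels of 5.99, 5.93 and 5.99. Its difference was 0.54 in null cells (SE 0.06, adjusted p = 8.95e-06) and -0.40 with Dox (SE 0.06, adjusted p = 0.000317). Ccna2, cyclin A2, differed by 0.50 and -0.33 (SE 0.06 each). For Cdk1, the mitotic kinase, the brightest probe differed by 0.07 with Dox (SE 0.09, adjusted p = 0.554), but its other probes differed by -0.14 and -0.60, so its direction is uncertain.

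Aurkb, the kinase of the chromosomal passenger complex, was dim and the only mitotic gene called with Dox. It read -1.51, -2.05 and -1.99 in wild-type cells, -1.81, -1.90 and -2.27 in null cells, -1.63, -1.61 and -1.79 without Dox, -1.95, -2.39 and -1.79 in EGFP cells, and -2.50, -2.51 and -1.89 with Map3k3 and Dox. Array 3 with Dox lay near the controls, and the Dox-treated arrays overlapped those of the EGFP, null and wild-type cells. Aurkb fell by 0.62 with Dox (SE 0.21, adjusted p = 0.0351), a call lost in 10 of 28 alternatives, and differed by -0.26 from EGFP cells (SE 0.21, adjusted p = 0.356). Aurka, the centrosomal relative, was lower at -0.38 and -0.44 in the same comparisons (SE 0.08 each, adjusted p = 0.00362 and 0.00135), and Plk1, another mitotic kinase, by -0.22 and -0.26 (SE 0.07 each, adjusted p = 0.018 and 0.0085).

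Of the spindle checkpoint and chromosome genes, 6 of 7 were lower with Dox by adjusted p alone (21.8% of all genes were), and 6 of 7 against EGFP cells (23.4%). In null cells 3 of 7 were higher, near the 34.7% of all genes. The largest of these differences was that of Bub1b, the checkpoint kinase BUBR1, at 0.58 in null cells (SE 0.08, adjusted p = 4.12e-05) and -0.55 with Dox (SE 0.08, 1.46-fold, adjusted p = 0.000186). Bub1, its paralogue, was lower at -0.40 with Dox (SE 0.06, adjusted p = 0.000446) without a difference that passed in null cells (0.12, SE 0.06, adjusted p = 0.128). Mki67, which encodes the Ki-67 proliferation antigen, differed by 0.58 in null cells (SE 0.07, adjusted p = 1.46e-05) and -0.31 with Dox (SE 0.07, adjusted p = 0.00348). Cdc20, the activator of the anaphase-promoting complex, passed in neither comparison (0.19 and -0.04, SE 0.08).

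Top2a, topoisomerase II alpha, read 4.65, 4.82 and 4.89 in wild-type cells, 4.71, 4.50 and 4.66 in null cells, 4.61, 4.41 and 4.53 without Dox, 4.58, 4.40 and 4.77 in EGFP cells, and 4.13, 4.08 and 4.11 with Map3k3 and Dox. The Dox-treated arrays lay below the 12 others. Top2a was lower with Dox at -0.40 (SE 0.10, adjusted p = 0.00728) and fell by 0.67 against wild-type cells (SE 0.10, adjusted p = 9.28e-05), a call that median centring, the slide block and the slide row block each ended.

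E2f1 and Mybl2 rose in null cells and remained above wild-type in Map3k3 cells with Dox. E2f1, the factor that drives S phase genes, read 1.70, 1.62 and 1.63 in wild-type cells, 2.90, 2.69 and 2.91 in null cells, 2.87, 2.68 and 2.83 without Dox, 2.88, 2.74 and 2.81 in EGFP cells, and 2.73, 2.41 and 2.70 with Map3k3 and Dox. No null-derived array overlapped the wild-type arrays. E2f1 rose by 1.19 in null cells (SE 0.09, 2.27-fold, adjusted p = 5.52e-07) and was still called against wild-type cells with Map3k3 and Dox, at 0.96 (SE 0.09, adjusted p = 2.95e-06), while its difference with Dox was -0.18 (SE 0.09, adjusted p = 0.157).

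Mybl2, which encodes B-MYB, read 7.28, 7.34 and 7.19 in wild-type cells, 8.30, 8.40 and 8.45 in null cells, 8.24, 8.32 and 8.38 without Dox, 8.37, 8.25 and 8.39 in EGFP cells, and 7.89, 7.91 and 7.98 with Map3k3 and Dox. Like Ccnb2 it formed 3 levels without overlap. Mybl2 rose by 1.11 in null cells (SE 0.07, 2.16-fold, adjusted p = 5.23e-08) and was lower at -0.39 with Dox (SE 0.07, adjusted p = 0.000677). Its other probes differed by 0.82 and 1.69 in null cells and by -0.86 and -0.52 with Dox, the same directions at other sizes. Foxm1, the third factor, ran the other way: 0.10 in null cells (SE 0.08, adjusted p = 0.279) and 0.36 higher with Dox (SE 0.08, adjusted p = 0.00415), although its dimmer probe gave 0.12 (SE 0.18).

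**Figure D4:**
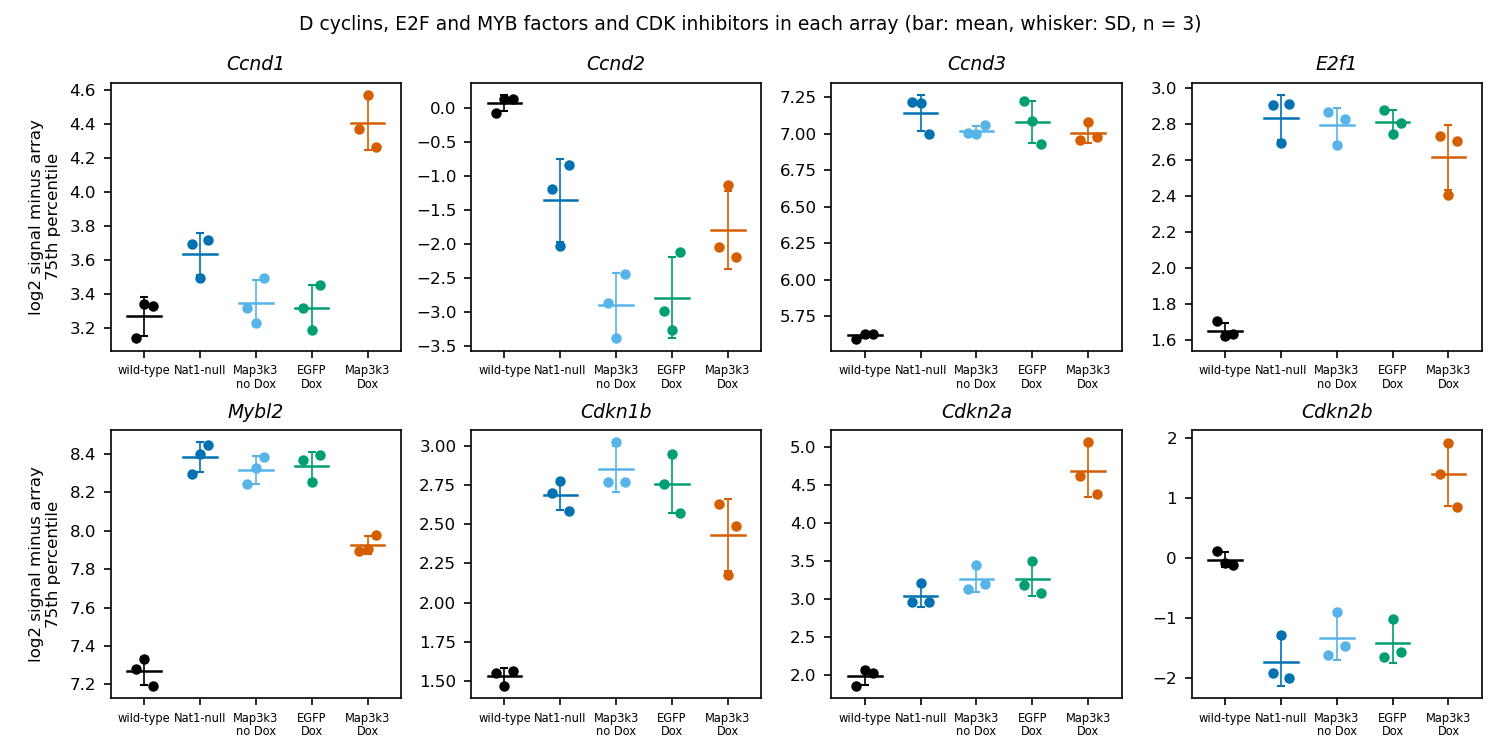
Points are the log2 levels of 8 genes on each array, by group, with the mean as a bar and the SD of 3 arrays as whiskers; each panel has its own axis. Ccnd3, E2f1, Mybl2 and Cdkn1b separate wild-type from all null-derived arrays, Ccnd1 and Cdkn2a are highest in all 3 Map3k3 arrays with Dox, and Cdkn2b is low in the 9 other null-derived arrays.

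The CDK inhibitors held the largest changes of all 41 genes. Cdkn2b encodes p15INK4B, which blocks CDK4 and CDK6. It read 0.11, -0.09 and -0.11 in wild-type cells, -1.92, -1.28 and -2.01 in null cells, -1.61, -0.90 and -1.47 without Dox, -1.66, -1.02 and -1.57 in EGFP cells, and 1.40, 1.92 and 0.86 with Map3k3 and Dox. The groups fell into 3 levels that did not overlap, with the Dox-treated arrays above wild-type and wild-type above the rest.

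Cdkn2b fell by 1.71 in null cells (SE 0.29, 3.27-fold, adjusted p = 0.000242). It rose by 2.72 with Dox (SE 0.29, 6.61-fold, adjusted p = 1.77e-05) and by 2.81 against EGFP cells (SE 0.29, 7.01-fold, adjusted p = 1.37e-05). Against wild-type cells the rise was 1.42 (SE 0.29, adjusted p = 0.000951), which the slide block ended (adjusted p = 0.101). A dimmer probe of the same gene, well above background on 8 of 15 arrays, differed by -2.12 in null cells and 3.14 with Dox.

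Cdkn2a, the neighbouring gene, encodes p16INK4A, another CDK4 and CDK6 inhibitor, and p19ARF, which stabilises p53. It read 1.85, 2.06 and 2.02 in wild-type cells, 2.95, 3.21 and 2.96 in null cells, 3.14, 3.44 and 3.19 without Dox, 3.19, 3.50 and 3.08 in EGFP cells, and 4.62, 5.07 and 4.38 with Map3k3 and Dox. Wild-type arrays were the lowest, Dox-treated Map3k3 arrays the highest, and nothing overlapped between these and the 9 others. Cdkn2a rose by 1.06 in null cells (SE 0.17, 2.09-fold, adjusted p = 0.000134), by 1.43 with Dox (SE 0.17, 2.7-fold, adjusted p = 3.67e-05) and by 2.71 against wild-type cells (SE 0.17, 6.56-fold, adjusted p = 5.87e-08). Its other probe differed by 0.97 and 1.38 in the first pair of comparisons, and no source used here says which of the p16INK4A and p19ARF transcripts the probes read. These neighbours were called in opposite directions in null cells and in the same direction with Map3k3 and Dox.

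Cdkn1b encodes p27KIP1, an inhibitor of CDK2 complexes. It read 1.55, 1.47 and 1.57 in wild-type cells, 2.70, 2.77 and 2.59 in null cells, 2.77, 3.02 and 2.77 without Dox, 2.76, 2.95 and 2.57 in EGFP cells, and 2.63, 2.18 and 2.49 with Map3k3 and Dox. Every null-derived array exceeded every wild-type array, and the Dox-treated arrays overlapped the null and EGFP arrays. Cdkn1b rose by 1.15 in null cells (SE 0.12, 2.23-fold, adjusted p = 6.36e-06) and by 0.90 in Dox-treated Map3k3 cells against wild-type (SE 0.12, adjusted p = 4.97e-05), and was lower with Dox at -0.42 (SE 0.12, adjusted p = 0.0186). Among inhibitors of the cycle, Cdkn1b and Cdkn2a rose and Cdkn2b fell in null cells, and among its drivers, Ccnd3 and E2f1 rose and Ccnd2 fell.

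Map3k3 cells with Dox were also set against wild-type cells, which by the labels differ from them in the deletion, the transgene and Dox at once. All wild-type arrays lay on slide 2 and all Map3k3 arrays with Dox on slide 1, so group and slide cannot be told apart here. A slide block rests on the EGFP arrays, the only group on both slides. In this comparison 7 genes rose (18.3% of all genes): Cdkn2a, Cdkn2b, Ccnd3, Ccnd1, E2f1, Cdkn1b and Mybl2. The 2 that fell (19.9% of all genes) were Ccnd2 and Top2a. By adjusted p alone 15 were higher and 9 lower (30.5% and 31.2% of all genes), and the median was 0.14. The arrays of 28 of the 41 did not overlap (70.7% of all genes). The count of 9 lower genes was 3 with median centring (23.8% of all genes lower) and 1 with the slide as a block (17.7%), and the slide block also ended the calls of Ccnd2, Cdkn2b and Top2a. Ccnd3, E2f1, Mybl2, Cdkn1b, Cdkn2a and Ccnd1 kept their calls in all 27 alternatives.

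No gene of the 41 was called between either control line and the parental null cells. In the EGFP cells with Dox 0 of 41 were called by limma (0.00693% of all genes) and 5 had an unadjusted p under 0.05 (7.22% of all genes). In the untreated Map3k3 cells 0 were called (0% of all genes) and 12 had an unadjusted p under 0.05 (14.4% of all genes). Mean levels were below the parental null cells for 34 of 41 genes in each of these comparisons, with medians of -0.06 and -0.10. Of all 14439 genes, 8410 and 8512 were below them too, with medians of -0.03 and -0.04. These comparisons share the parental null arrays.

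Genes higher in null than in wild-type cells and lower in Map3k3 cells with Dox than without were compared. Those comparisons share no arrays, but 1 model gave both the same estimate of each gene's spread. Same-numbered null and untreated Map3k3 arrays also correlated, at 0.27 to 0.617. The lists are therefore not independent of each other. By adjusted p alone 15 genes did both, 55.6% of the 27 higher in null cells and 71.4% of the 21 lower with Dox. Among all genes tested 1701 did both, 34% and 54% of the respective lists, and among the other cell cycle genes 39 did, 66.1% and 58.2%. Cdkn2b and Ccnd2 did the opposite, being called lower in null cells and higher with Dox. CCAAT stood in 15 of the 18 promoters of genes lower with Dox by adjusted p alone, and in 8 of the 16 promoters of the other measured genes, given as a description with no test.

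Another 120 genes of the cell cycle, 119 of them measured, were counted for context. In null cells 22 rose and 4 fell (17.2% and 20.5% of all genes), and by adjusted p alone 59 were higher and 12 lower (34.7% and 28.3% of all genes). The rising genes with the largest differences were E2f2, an E2F activator, at 1.77 (SE 0.09), Cdkn2c, which encodes p18INK4C, at 1.15 (SE 0.33), and Lin9, a subunit of the MuvB core that B-MYB binds, at 0.91 (SE 0.23). The falling ones were Cdkn1c, which encodes p57KIP2, at -1.35 (SE 0.10), Nme1, a nucleoside diphosphate kinase, at -0.95 (SE 0.12), and E2f7, an E2F repressor, at -0.76 (SE 0.18).

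With Dox 5 of the 119 rose and 5 fell (12.3% and 5.58% of all genes), and by adjusted p alone 6 were higher and 67 lower (18.0% and 21.8% of all genes). Of the 40 origin and fork genes, 31 were lower by adjusted p alone and 0 higher, and against EGFP cells 34 were lower (23.4% of all genes). Cdkn1c at 1.16 (SE 0.10), Cdkn1a, which encodes p21CIP1, at 0.88 (SE 0.20), and Rb1, the retinoblastoma gene, at 0.70 (SE 0.21) led the rising genes, all called against EGFP cells too. Rbl2, which encodes the p130 pocket protein, at -0.81 (SE 0.15), Kif11, the spindle motor Eg5, at -0.65 (SE 0.07), and Chek1, the replication checkpoint kinase, at -0.62 (SE 0.17) led the falling ones. Rbl2 was well above background on 2 and Chek1 on 1 of the 3 arrays with Dox. Cdkn1c, like Cdkn2b, was lower in null cells and higher in Map3k3 cells with Dox than without.

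Markers of other cell types moved with the same groups. All 10 pluripotency markers were higher in null cells by adjusted p alone, 8 of them called, with a summed signal (in multiples of the array's 75th percentile) of 746 to 803 in wild-type, 1419 to 1466 in null and 1047 to 1112 in Dox-treated Map3k3 arrays. Fibroblast and feeder markers summed to 95.4 to 101 in wild-type cells, 6.39 to 6.56 in null cells and 11.3 to 14.6 with Map3k3 and Dox, and 7 of 9 measured were called lower in null cells. Of this list Dcn, Col1a2 and Acta2 were above background on all 3 wild-type arrays and on 0 null arrays, and Lum and Col6a3 on no array. Col1a1, Thy1, Tagln and Fbln2 were above it on all 3 arrays of each group, and Col3a1 and Twist1 on 3 wild-type and 2 null arrays. Trophectoderm markers summed to 210 to 219 in wild-type, 14.0 to 33.1 in null, 13.9 to 27.9 in untreated Map3k3, 12.8 to 27.9 in EGFP and 366 to 435 in Dox-treated Map3k3 arrays. In that list 10 of 11 measured fell in null cells and 10 of 11 rose with Dox, Cdx2 being above background on 0 null, untreated and EGFP arrays and on all 3 wild-type and all 3 Dox-treated Map3k3 arrays. Primitive endoderm markers summed to 39.5 to 44.9 in wild-type, 49.95 to 74.6 in null and 64.7 to 75.01 in untreated Map3k3 cells. The sums were 68.0 to 92.3 in EGFP and 45.6 to 66.6 in Dox-treated Map3k3 cells. Of these markers 9 of 12 rose in Map3k3 cells with Dox against without, and 2, Sox7 and Lama1, fell. Sox17 was above background only on the Dox-treated Map3k3 arrays, and Hnf4a on 1 of them but on all 3 arrays of each other group. Keratinocyte markers summed to 7.03 to 8.08 in wild-type, 8.17 to 9.42 in null, 7.99 to 9.23 in untreated and 9.60 to 10.9 in Dox-treated Map3k3 cells, with Ivl and Dsg3 on no array. Their part in the levels of the cell cycle genes was not tested.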

How the data were processed

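RNA of 15 mouse embryonic stem cell samples was hybridised to single-colour Agilent arrays, 3 per group. The deposited scanner files give the intensity of 62976 spots per array (59305 of them not controls), extracted with Feature Extraction 11.5.1.1 per the file headers. Per the file headers, which hold statistics of background subtraction and spatial detrending, the processed intensity had passed through these steps. The authors also deposited log2 values, which correlated at 1 with those used here. The design's mm9 positions were not used.

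Outlier spots were left out, spots of a probe were averaged, and log2 was taken minus each array's 75th percentile. Of 55681 probes, 28325 were named through their RefSeq accession, for 21364 genes. A probe was kept if some group had it well above background on each of its 3 arrays, and the brightest probe kept stood for its gene, which left 14439 genes. limma 3.58.1 in R 4.3.3 fitted the 5 group means with 10 residual degrees of freedom, and p-values were Benjamini-Hochberg adjusted. The model was run on simulated arrays with independent noise and added changes larger than most differences found here. Those arrays held no replicate, slide or row effect, so the run does not speak to such effects. No counts exist for arrays, and their number limits the precision.

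The members and gene lists were chosen with earlier results of these data known. Every-array values are given for members called in at least 1 of 6 comparisons or with a difference among the 5 largest for null against wild-type cells or for Map3k3 with against without Dox. From the other cell cycle genes, the 3 called with the largest differences in each direction are named for those comparisons.

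The labels number the replicates. The deviations of same-numbered arrays from their group means correlated at 0.154, 0.318 and 0.252 for Map3k3 with and without Dox, at 0.1005, 0.316 and 0.193 for Map3k3 and EGFP with Dox, and at 0.251 to 0.617 between the control lines and null cells. Arrays 1 and 3 of these groups also correlated with each other across groups, at 0.0923 to 0.23, and array 2 with neither, at -0.164 to -0.47. Since every same-numbered correlation exceeded 0.1, the numbers were taken to pair those arrays. The correlations do not set arrays 1 and 3 apart, as Map3k3 array 1 with Dox correlated at 0.186 with EGFP array 3. The main model holds no replicate term, so its counts and p-values ignore this pairing, which enters only through the replicate block. With wild-type arrays the correlations lay between -0.028 and 0.0591, and those arrays were treated as not paired.

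Alternatives were normexp background correction (offset 50, on median signals because the files hold no mean signal), quantile normalization, median centring, the authors' values, other filters, the mean of probes, no fold minimum, fits of only the groups compared, slide, slide row and replicate blocks, and leaving out each array. Fits within a slide or slide row were added after seeing the data.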

Additional observations from a re-analysis of the deposited data

How the results depend on the processing

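Counts of called cell cycle genes with and without the fold minimum differed most. Without it 29 in place of 12 passed for null against wild-type cells, 26 in place of 6 for Map3k3 with against without Dox, 26 in place of 3 against EGFP, and 24 in place of 9 against wild-type. For all genes the same change gave 9090 in place of 5449, 5751 in place of 2579, 5974 in place of 2603 and 8902 in place of 5517. Median centring gave 23 calls among the 41 genes for null against wild-type cells and shifted all genes by 0.14 there and by 0.11 for Map3k3 with Dox against wild-type. By adjusted p alone it gave 29 higher and 2 lower in null cells, with 41.4% of all genes higher and 22% lower. The filter for all 15 arrays, which tests fewer genes, left 1718 calls for Map3k3 with against without Dox. Against EGFP cells the slide block, the replicate block and the fit within slide row 2 (chosen after seeing the data) each gave 5 calls among the 41. By adjusted p alone 6 were higher in each, and 20, 25 and 19 were lower. Of all genes 17%, 20.6% and 15.2% were higher and 18.8%, 28.3% and 14.9% lower.

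Leaving out 1 array gave 11 to 13 calls among the 41 for null against wild-type cells, 3 to 6 for Map3k3 with against without Dox, 3 to 5 against EGFP and 9 to 10 against wild-type. Over all genes it gave 5259 to 5503, 2390 to 2642, 2436 to 2660 and 5299 to 5581. For EGFP cells against null cells, 1 gene was called at first. That count was 2 with normexp, 0 with median centring, 0 with only these groups, 20 with the slide block, 25 within slide 2 (chosen after seeing the data) and 0 to 9 with an array left out. For untreated Map3k3 cells against null cells, where 0 were called, it was 2 with normexp, 10 with the filter for all 15 arrays, 13 with the slide block, 2 with the slide row block, 39 with the replicate block and 0 to 24 with an array left out. None of the 41 was called in either of these comparisons under any alternative run.

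The replicate block moved no other count by over 1.5 times. The wild-type and null arrays lay in different rows of their slides, so the row block there rests on the other groups. It gave 25 higher and 1 lower by adjusted p alone, where 26.7% of all genes were higher and 21% lower. No sign of a called gene reversed in any alternative. Apart from the filter, the cause of these differences was not tested. Cdk6 was not well above background on all 15 arrays.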
